A study of Capra hircus with 10 samples.

Results

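The proteasome genes of the goat ovary were taken as every protein-coding gene whose symbol begins with PSMA, PSMB, PSMC, PSMD, PSME, PSMF or PSMG followed by a number. This symbol rule matched 49 of the 20587 protein-coding symbols in the deposited expression table, with 62 of its 43766 protein-coding transcripts, and it used no expression value. One of the 49, PSMC3IP, shares the prefix but is a meiotic recombination factor and not a part of the proteasome. The other symbols cover the 20S core, the 19S regulatory particle, the immune-type catalytic subunits, the activators and the assembly chaperones.

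RNA was sequenced from whole ovaries of Anhui white goats, 5 in the luteal phase, when a corpus luteum is present, and 5 in the follicular phase, when follicles are growing. The ovaries came from a slaughterhouse, and no treatment is named. Neither the age of the goats nor the day within the phase is given in the sources used here, and nothing there states that each ovary came from a different goat, so the p-values measure the spread between these ovaries. The level of a transcript was given as FPKM, the number of fragments mapped to it relative to its length and to the mapped total of the library, and the transcripts of a symbol were summed.

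The 26S proteasome is the main protease for proteins marked with ubiquitin. Its 20S core is a stack of alpha and beta rings with the protease sites inside, and its 19S particle binds ubiquitin chains, removes them and feeds the unfolded protein into the core with a ring of ATPases. Cells that meet interferon gamma put PSMB8, PSMB9 and PSMB10 in place of PSMB5, PSMB6 and PSMB7 in newly built cores, which changes the peptides made for MHC class I presentation. In the ovary, ubiquitin-dependent degradation takes part in oocyte maturation and in the turnover of cell cycle and steroidogenic proteins.

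The 10 libraries summed to between 452508 and 540124 FPKM. Over all tested genes, the correlation of log2(FPKM + 0.1) ran from 0.969 to 0.992 between ovaries of the same phase and from 0.935 to 0.949 between ovaries of different phases. Of all 15359 genes tested, 15.9% were higher and 27.8% lower in the luteal ovaries (limma, Benjamini-Hochberg adjusted p under 0.05), and the marker lists below are read beside these shares. All 7 tested corpus luteum markers were higher in the luteal ovaries, with a median log2 fold change of 4.87, and OXT, the luteal oxytocin gene, moved most, at 10.26. All 6 endothelial markers were also higher, led by the VEGF receptor KDR at 1.59. Of the oocyte markers, 6 of 11 tested were lower, with the growth factor BMP15 moving most at -1.55, and the receptor gene KIT was higher at 2.59. The granulosa list had 4 of 8 lower, with AMH at -1.42, and 1 higher, NR5A2 at 1.58. Of 5 stroma markers, 2 were higher, led by the matrix proteoglycan LUM at 1.51. The blood list had no gene that could be tested. An ovary is a mixture, so more or fewer cells of a type and more or less RNA per cell cannot be told apart in any value below.

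Few proteasome genes differed between the phases. Of the 49, 48 passed the filter (at least 0.1 FPKM in at least 5 of the 10 ovaries), and 7 of these 48 differed at a Benjamini-Hochberg adjusted p under 0.05 in limma, 4 higher and 3 lower in the luteal ovaries. Across all genes 43.7% passed the same threshold, beside 14.6% of the members. All ovaries of 1 phase lay above all of the other for 2 of the 48 members, beside 28.4% of all genes. The median size of the log2 fold change, regardless of sign, was 0.129 for the members and 0.338 for all genes, and the median standard error was 0.102 for the members and 0.144 for all genes. The median signed change was 0.04 for the members and -0.14 for all genes, but the members' median turned to -0.02 after quantile normalization. The split between directions also depended on the scaling. Higher genes made up 36.3% of all calls, 48.8% once the ovaries were aligned to 1 median and 52.1% on the TPM scale, which sets every ovary to the same total, and TPM gave 11 calls among the 48 members, all higher in the luteal ovaries, while 34.8% of all genes passed. Leaving out follicular replicate 2 gave 13 calls, 10 higher and 3 lower, while 45.6% of all genes passed.

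**Figure D1:**
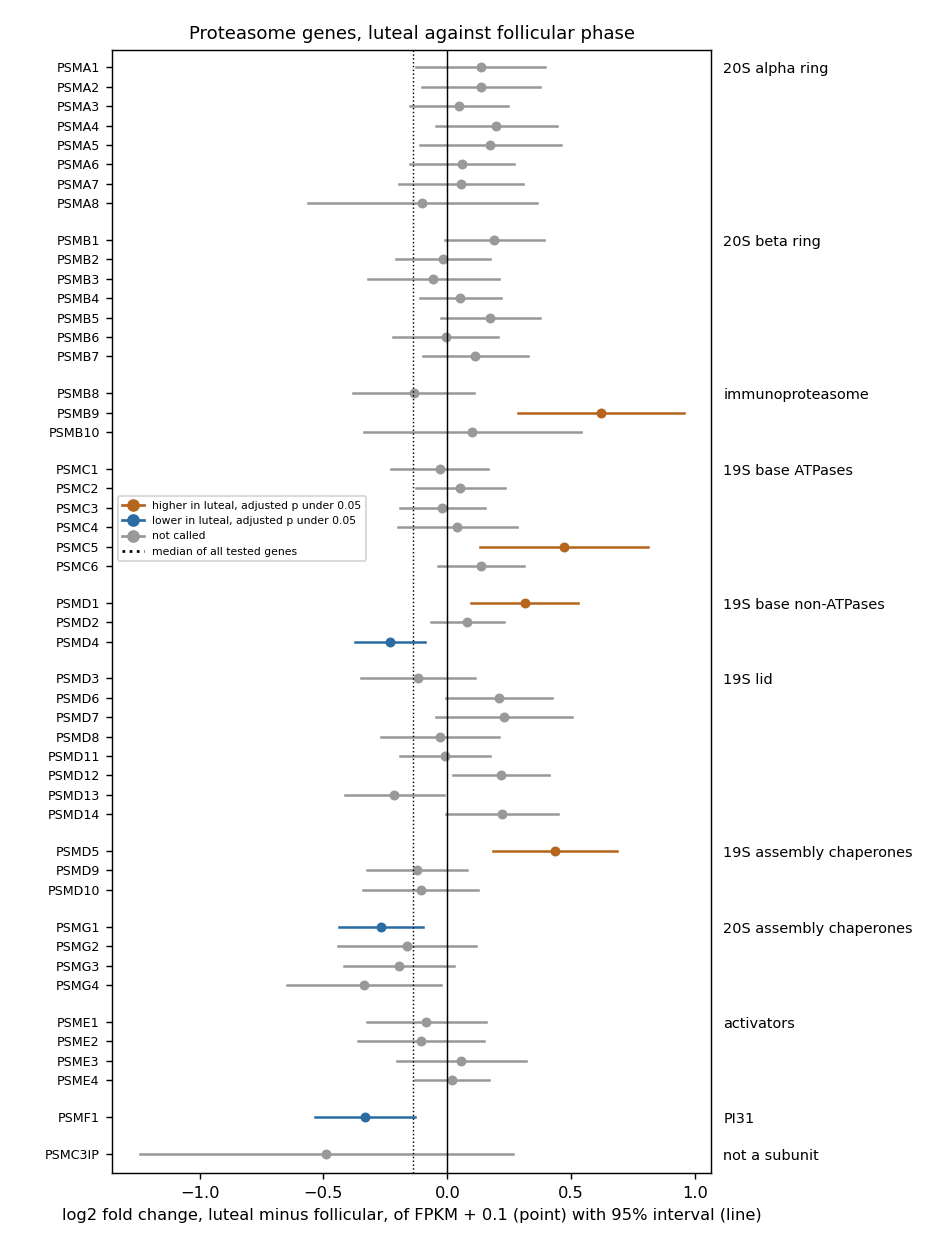
Luteal minus follicular log2 fold change of FPKM + 0.1 for each of the 48 tested proteasome genes (points) with its 95% interval (lines), grouped by place in the particle; the dotted line is the median of all tested genes. PSMB9, PSMC5, PSMD1 and PSMD5 lie to the right with intervals clear of 0, PSMD4, PSMF1 and PSMG1 lie to the left, and the 14 core subunits PSMA1 to PSMA7 and PSMB1 to PSMB7 sit between -0.06 and 0.20, where the signs of several differ between scalings.

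The 20S core was expressed at a high level in both phases. The means of PSMA1 to PSMA7 and PSMB1 to PSMB7 ran from 52.5 to 148 FPKM in the luteal ovaries and from 53.3 to 143 FPKM in the follicular ovaries, with PSMB2, a catalytically silent ring member, lowest and PSMB4, which lacks its own protease site, highest in both. None of these 14 genes passed the adjusted threshold, beside 43.7% of all genes, and none had an unadjusted p under 0.05. Their median log2 fold change was 0.08, with 11 of 14 above 0, beside 5835 of the 15359 genes tested, but after quantile normalization the median was -0.02, with 6 of 14 above 0. In the fit without that step their 95% intervals together spanned -0.32 to 0.46. On the TPM scale 3 of the 14 (PSMA4, PSMB1 and PSMB5) passed as higher in the luteal ovaries, beside 34.8% of all genes called in either direction, and PSMA4 and PSMB1 also passed without follicular replicate 2.

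In the alpha ring, which gates the entry to the core, the gene with the largest log2 fold change was PSMA4. It stood at 62.2, 72.0, 60.3, 70.9 and 63.7 FPKM in luteal replicates 1 to 5 and at 58.7, 72.9, 48.3, 60.8 and 49.0 FPKM in follicular replicates 1 to 5. The highest single value was a follicular one, and the phases overlapped, with a log2 fold change of 0.20 (SE 0.11, adjusted p = 0.171). PSMA8, the alternative subunit of the testis-specific core that takes the place of PSMA7 in germ cells, was far below the rest of the ring, at 1.70 ± 0.0941 FPKM (SD, n = 5) in the luteal and 1.93 ± 0.714 FPKM in the follicular ovaries. Its follicular values were 2.85, 2.54, 1.42, 1.33 and 1.48 FPKM, so follicular replicates 1 and 2 stood above the other 8 ovaries, and its log2 fold change was -0.10 (SE 0.21, adjusted p = 0.720).

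Among the constitutive beta ring genes PSMB1 to PSMB7 the largest log2 fold change was that of PSMB1, a structural ring member without a protease site of its own. Its values were 138, 148, 124, 154 and 140 FPKM in the luteal replicates and 120, 145, 111, 133 and 112 FPKM in the follicular replicates. These ranges overlapped, and the log2 fold change of 0.19 (SE 0.09) had an adjusted p of 0.114. PSMB11, the thymus-specific catalytic subunit, reached at most 0.0597 FPKM, in luteal replicate 3, was listed at 0 in 6 of the 10 ovaries and was not tested.

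**Figure D2:**
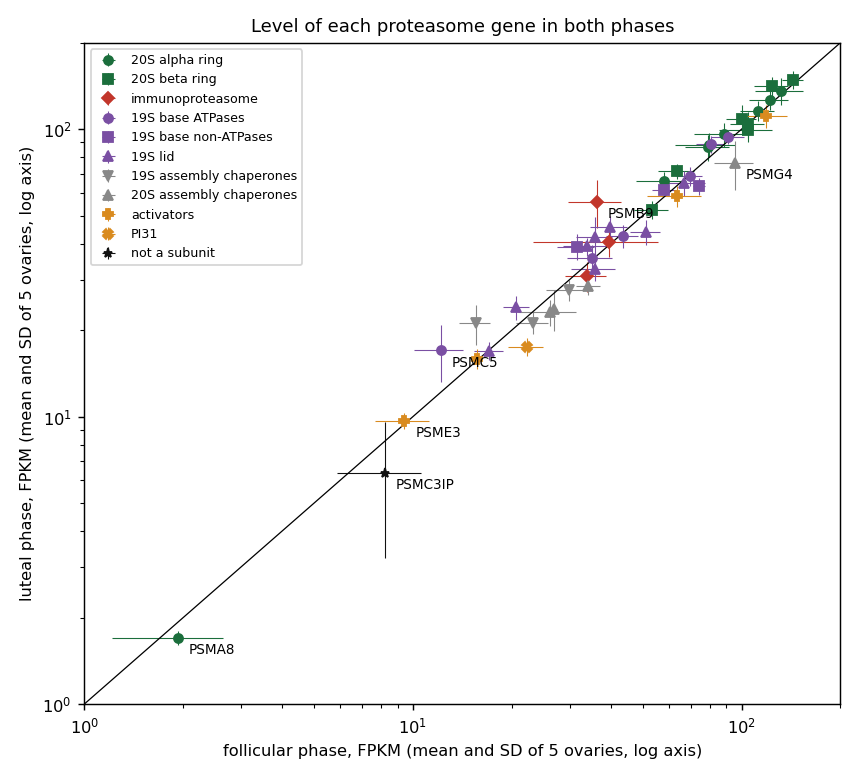
Mean FPKM of each proteasome gene in the luteal (vertical, log axis) and follicular (horizontal, log axis) ovaries, with bars of 1 SD over 5 ovaries and the line of equal levels. The core subunits cluster near the line above 50 FPKM, PSMA8 and PSMC3IP are the lowest plotted genes, PSMB9 and PSMC5 lie above the line, and PSMB11 is below the plotted range.

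The catalytic subunits were then compared as constitutive and immune-type pairs. PSMB6 carries the caspase-like site of the constitutive core, and PSMB9, also called LMP2, takes its place in the immunoproteasome. PSMB6 was at 107, 116, 92.4, 111 and 93.8 FPKM in the luteal and at 103, 121, 90.01, 113 and 96.9 FPKM in the follicular replicates, nearly the same range in both. PSMB9 was at 41.1, 70.1, 53.3, 59.6 and 55.2 FPKM in the luteal and at 41.4, 43.1, 27.03, 32.9 and 37.0 FPKM in the follicular replicates. Luteal replicates 2 to 5 lay above every follicular ovary, while luteal replicate 1 fell below follicular replicates 1 and 2. PSMB9 was the most changed proteasome gene that passed the test, with 55.9 ± 10.5 against 36.3 ± 6.54 FPKM (SD, n = 5) and a log2 fold change of 0.62 (SE 0.15, adjusted p = 0.00755). It passed in each of the 10 fits that left out 1 ovary, in the 10 fits with another pseudocount, filter, scaling, variance model, block or transcript choice, and at a threshold of 0.01.

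PSMB5 holds the chymotrypsin-like site, and PSMB8, or LMP7, is its immune-type replacement. PSMB5 measured 70.8, 73.8, 64.0, 74.6 and 73.8 FPKM in the luteal and 70.0, 70.3, 52.6, 67.6 and 57.6 FPKM in the follicular replicates, with a log2 fold change of 0.17 (SE 0.09, adjusted p = 0.142). PSMB8 measured 34.4, 25.1, 29.1, 32.3 and 32.7 FPKM in the luteal and 30.1, 38.6, 30.9, 30.1 and 39.4 FPKM in the follicular replicates. Its phases overlapped, with luteal replicates 1, 4 and 5 inside the follicular range and luteal replicates 2 and 3 below it. The log2 fold change of PSMB8 was -0.14 (SE 0.11, adjusted p = 0.342), with a 95% interval from -0.38 to 0.11. The second annotated transcript of PSMB8 made up 16.7% ± 8.29 of the gene's FPKM in the luteal and 17.2% ± 7.37 in the follicular ovaries.

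PSMB7 provides the trypsin-like site and PSMB10, or MECL-1, replaces it. PSMB7 was at 103, 123, 95.2, 120 and 99.5 FPKM in the luteal and at 97.7, 114, 86.1, 106 and 97.5 FPKM in the follicular replicates. PSMB10 stood at 32.8, 43.0, 42.9, 43.0 and 40.0 FPKM in the luteal replicates and at 31.3, 68.3, 29.8, 32.4 and 35.7 FPKM in the follicular ones. Follicular replicate 2 was far above all other ovaries, and the log2 fold change was 0.10 (SE 0.20, adjusted p = 0.706). Without that ovary PSMB10 passed as higher in the luteal ovaries, at 0.32 (adjusted p = 0.0193).

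**Figure D3:**
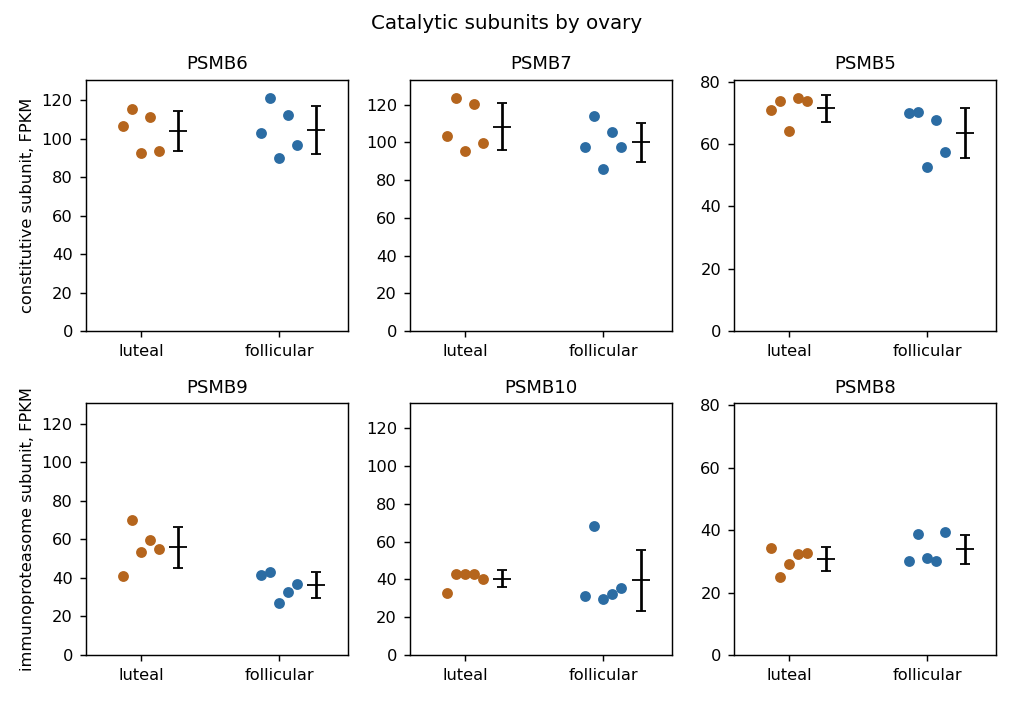
FPKM in each ovary (points) with mean and SD (n = 5) for the 3 constitutive catalytic subunits (top row) and the immune-type subunit that replaces each (bottom row), with a shared scale within a pair and axes from 0. PSMB9 is the pair member whose luteal points sit mostly above the follicular points, and PSMB10 has 1 follicular point at 68.3 FPKM.

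A ratio of FPKM values within an ovary is not altered by a single scaling factor for that ovary, such as median alignment or the TPM scale, but it can be by quantile normalization, under which the ratios were not run. The ratio of PSMB9 to PSMB6 was 0.385, 0.606, 0.577, 0.536 and 0.588 in the luteal and 0.403, 0.356, 0.300, 0.292 and 0.382 in the follicular replicates. Luteal replicate 1 lay between the follicular values and the other 4 luteal ovaries lay above all of them. The mean ratio was 0.539 ± 0.0896 against 0.347 ± 0.0492 (SD, n = 5), a log2 difference of 0.63 in a two-sided exact permutation test (p = 0.0159, adjusted over the 3 ratios p = 0.0476). With 5 ovaries a phase, this test can give no p below 0.00794, and the adjusted p was 0.0952 in 8 of the 10 tests that left out 1 ovary, while the log2 difference stayed between 0.57 and 0.74. The ratio of PSMB8 to PSMB5 went the other way, at 0.431 ± 0.0548 against 0.539 ± 0.105, and missed the threshold (exact permutation p = 0.103, adjusted p = 0.155). That of PSMB10 to PSMB7 was 0.375 ± 0.0521 against 0.388 ± 0.121 (exact permutation p = 0.944). Whether the ratios differ from each other in their change was not tested.

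PSMB9 and PSMB8 are neighbours in the goat RefSeq annotation (assembly ARS1.2), in the order PSMB9, TAP1, PSMB8, TAP2. TAP1 and TAP2, named here for this position after their values were seen, encode the peptide transporter for MHC class I. TAP1 was at 10.7 ± 1.098 FPKM in the luteal and 10.9 ± 1.49 FPKM in the follicular ovaries (log2 fold change -0.02, adjusted p = 0.879), and TAP2 at 17.1 ± 2.12 against 15.8 ± 3.76 FPKM (0.13, adjusted p = 0.471). So of the 4 neighbouring genes only PSMB9 passed the test. Of the 11 genes listed for the MHC class I route, 2 passed, both higher in the luteal ovaries (15.9% of all genes were higher) and led by B2M, the class I light chain, at 1030 ± 109 against 779 ± 59.7 FPKM (0.40, SE 0.10, adjusted p = 0.00830).

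Leukocytes carry the immunoproteasome without induction, so their markers are given beside these values. Of 16 leukocyte markers tested, 3 were higher in the luteal ovaries (CD8A, which changed most at 1.197, CSF1R and TYROBP) and none was lower, beside 15.9% and 27.8% of all genes, and 15 of the 16 had a log2 fold change above 0. TYROBP missed the threshold after quantile normalization. The summed FPKM of the list was 198, 190, 168, 202 and 191 in the luteal and 135, 104, 149, 146 and 230 in the follicular replicates. Follicular replicate 5 was thus the highest of all ovaries, and the other follicular ovaries were below every luteal one. PTPRC, the pan-leukocyte CD45, was at 10.9 ± 1.49 and 10.1 ± 3.78 FPKM, and the B cell marker MS4A1 was below the filter. Follicular replicate 2, the ovary with the highest PSMB10, had the lowest leukocyte sum of all 10. Luteal replicates 2 to 5, which lay above every follicular ovary in PSMB9, lay above follicular replicates 1 to 4 in the leukocyte sum. Luteal replicate 1, with the lowest luteal PSMB9, did so too. The part of leukocytes in the PSMB9 difference was not tested.

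In the base of the 19S particle, 6 ATPases (PSMC1 to PSMC6) unfold the substrate and thread it into the core. One of them, PSMC5, changed. Its values were 13.5, 16.0, 14.4, 18.2 and 22.9 FPKM in the luteal and 14.4, 14.0, 9.83, 12.1 and 10.4 FPKM in the follicular replicates. Luteal replicate 5 was highest, and luteal replicates 1 and 3 lay within the follicular range. The means were 17.0 ± 3.76 and 12.2 ± 2.07 FPKM, with a log2 fold change of 0.47 (SE 0.16, adjusted p = 0.0294). PSMC5 was the least abundant of the ATPases, whose other means ran up to 94.2 FPKM, and its 5 partners did not pass, with log2 fold changes from -0.03 to 0.14, although PSMC6 passed as higher on the TPM scale (0.24, adjusted p = 0.0249). The PSMC5 call was lost without luteal replicate 4 or 5 or without follicular replicate 3, 4 or 5, with adjusted p values up to 0.0699, while its log2 fold change ran from 0.36 to 0.55 over the 10 fits that left out 1 ovary.

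The other 3 base genes of the set encode a pair of scaffolds and a ubiquitin receptor. PSMD1, the scaffold that anchors the receptor ADRM1, was at 37.0, 36.7, 35.4, 40.7 and 45.5 FPKM in the luteal and 32.3, 38.1, 27.9, 30.9 and 28.5 FPKM in the follicular replicates. The luteal values were mostly higher, with follicular replicate 2 reaching into their range. The log2 fold change was 0.31 (SE 0.10, adjusted p = 0.0249), and the call was lost without luteal replicate 4 or 5 or follicular replicate 3 or 5 (adjusted p up to 0.0606), with log2 fold changes from 0.26 to 0.38 over the 10 fits. PSMD2, the scaffold that docks ubiquitin shuttle factors, measured 61.5 ± 2.01 and 58.3 ± 4.87 FPKM and did not pass (0.08, adjusted p = 0.353).

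PSMD4, also called Rpn10, is a ubiquitin receptor of the base and changed in the opposite direction. It was at 57.3, 66.0, 60.5, 68.0 and 64.5 FPKM in the luteal and 73.5, 76.3, 72.3, 78.1 and 70.8 FPKM in the follicular replicates. Every follicular ovary was above every luteal ovary, although the difference was small, at a log2 fold change of -0.23 (SE 0.06, adjusted p = 0.0128). PSMD4 passed in each fit that left out 1 ovary, but not once the ovaries were aligned to 1 median (-0.15, adjusted p = 0.184), on the TPM scale (-0.13, adjusted p = 0.117) or with its leading transcript alone (-0.11, adjusted p = 0.497). The minor transcript held 16.4% ± 7.07 of PSMD4 FPKM in the luteal and 22.9% ± 8.83 in the follicular ovaries.

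The lid, which surrounds the deubiquitinase that strips the ubiquitin chain, had no call among its 8 members, beside 43.7% of all genes, and their levels ran from 16.9 to 65.2 FPKM in the luteal and from 17.1 to 66.9 FPKM in the follicular ovaries. PSMD14, the deubiquitinase itself, was at 37.9, 40.1, 35.7, 43.2 and 38.7 FPKM in the luteal and 34.5, 41.2, 27.7, 35.7 and 29.9 FPKM in the follicular replicates. The ranges overlapped, with follicular replicate 2 second highest of all, and the log2 fold change was 0.22 (SE 0.10, adjusted p = 0.102). Without follicular replicate 2 PSMD14 passed, at 0.30 (adjusted p = 0.0206). PSMD7, its inactive partner and the lid gene with the largest log2 fold change, measured 34.9, 41.2, 35.8, 47.5 and 51.8 FPKM in the luteal and 36.2, 39.5, 33.5, 40.5 and 29.6 FPKM in the follicular replicates (0.23, SE 0.12, adjusted p = 0.156). Luteal replicates 2, 4 and 5 stood above all follicular ovaries and luteal replicates 1 and 3 lay among them. The other 6 lid genes, among them the scaffolds PSMD3 and PSMD12, had log2 fold changes from -0.21 to 0.22, and those at either end, PSMD13 (adjusted p = 0.0772) and PSMD12 (adjusted p = 0.0655), had unadjusted p-values under 0.05. On the TPM scale, where 34.8% of all genes passed, 3 of the 8 lid genes passed as higher, PSMD12 (0.32, adjusted p = 0.0146), PSMD14 (0.32, adjusted p = 0.0176) and PSMD6 (0.31, adjusted p = 0.0199), and PSMD12 also passed once the ovaries were aligned to 1 median (adjusted p = 0.0446). PSMD12 passed without luteal replicate 1 (adjusted p = 0.0312) or follicular replicate 2 (adjusted p = 0.0403), and PSMD6 without luteal replicate 3 (adjusted p = 0.0433) or follicular replicate 2 (adjusted p = 0.0260). PSMD13 passed as lower after quantile normalization (-0.29, adjusted p = 0.0260) and without luteal replicate 2 (adjusted p = 0.0494).

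Of the genes that build or regulate the particle, 1 of 3 base chaperones, 1 of 4 core chaperones, none of 4 activators and the inhibitor PSMF1 passed, beside 43.7% of all genes. PSMD5, a chaperone that holds ATPase subunits during assembly of the base, stood at 17.8, 19.5, 19.03, 25.4 and 23.8 FPKM in the luteal and 17.3, 16.6, 12.98, 15.8 and 15.0 FPKM in the follicular replicates. All 5 luteal ovaries were above all 5 follicular ovaries, and the log2 fold change was 0.43 (SE 0.11, adjusted p = 0.0103). PSMD5 passed in each fit that left out 1 ovary and in the 10 fits with another pseudocount, filter, scaling, variance model, block or transcript choice, but not at a threshold of 0.01. The other base chaperones, PSMD9 (21.2 ± 1.89 and 23.2 ± 2.60 FPKM) and PSMD10 (27.6 ± 2.33 and 29.9 ± 4.48 FPKM), did not pass.

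The 20S assembly chaperones PSMG1 to PSMG4 assist the making of the alpha ring, and all 4 had fold changes below 0 under the deposited scaling and under each of the 3 other scalings. Most genes were also below 0 under the deposited scaling, with 5835 of the 15359 tested above it. PSMG1 passed the test, at 25.5, 29.4, 27.4, 29.7 and 29.9 FPKM in the luteal and 35.5, 34.4, 35.8, 36.1 and 29.2 FPKM in the follicular replicates. Follicular replicate 5 lay within the luteal range and the other 4 follicular ovaries were above all luteal ovaries. The log2 fold change was -0.27 (SE 0.08, adjusted p = 0.0160), and it missed the threshold with the ovaries aligned to 1 median (-0.18, adjusted p = 0.139) and on the TPM scale (-0.17, adjusted p = 0.131). PSMG4, the most abundant of the 4 and the one with the largest log2 fold change, was at 70.2, 80.8, 54.7, 94.9 and 81.0 FPKM in the luteal and 93.3, 115, 94.0, 97.4 and 78.0 FPKM in the follicular replicates, with a log2 fold change of -0.34 (SE 0.14, adjusted p = 0.0752). Its phases overlapped through luteal replicate 4 and follicular replicate 5. PSMG4 passed after quantile normalization (-0.46, adjusted p = 0.00923), without luteal replicate 4 (-0.42, adjusted p = 0.0364) and without follicular replicate 5 (-0.41, adjusted p = 0.0446). PSMG3 did not pass (-0.20, SE 0.10, adjusted p = 0.135) but did without luteal replicate 2 (-0.27, adjusted p = 0.0318).

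PSMF1, or PI31, binds the 20S core and inhibits it in the test tube. It was at 16.8, 17.5, 19.3, 18.1 and 15.9 FPKM in the luteal and 22.8, 20.4, 23.0, 18.8 and 25.9 FPKM in the follicular replicates. Follicular replicate 4 alone reached into the luteal range. The log2 fold change was -0.33 (SE 0.09, adjusted p = 0.0130), which missed the threshold on the TPM scale (-0.24, adjusted p = 0.104).

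**Figure D4:**
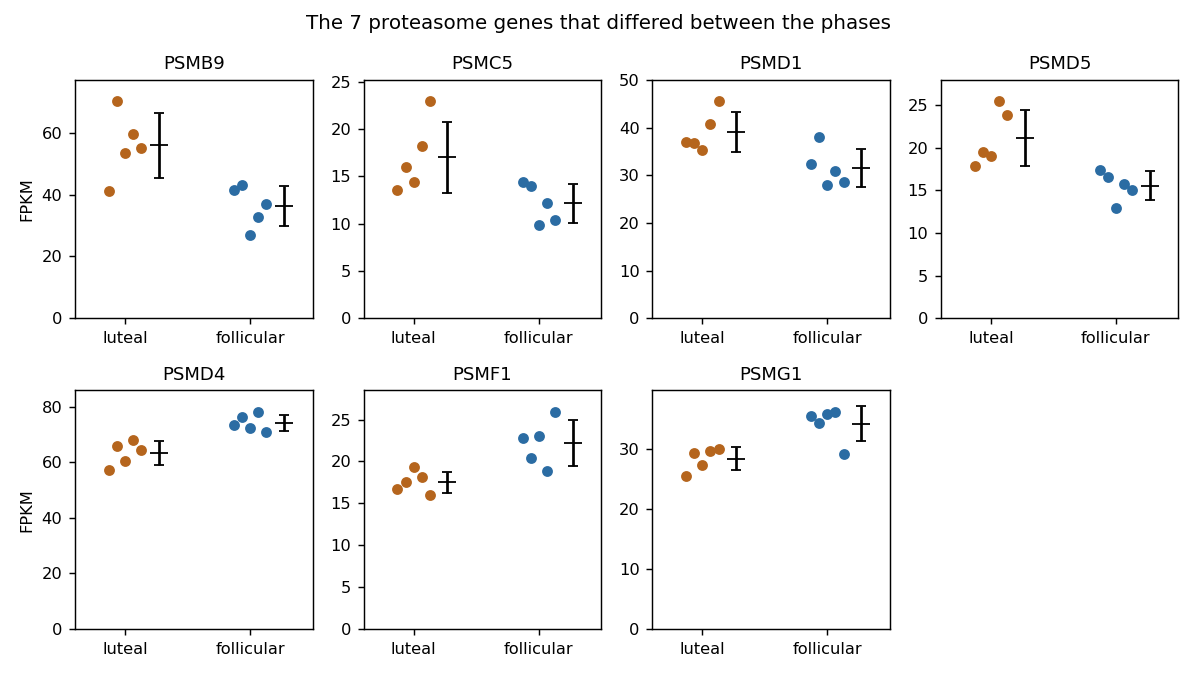
FPKM in each ovary (points) with mean and SD (n = 5) for the 7 proteasome genes with an adjusted p under 0.05, axes from 0. The points of the phases do not overlap for PSMD4 and PSMD5 and overlap by at least 1 ovary for the other 5; the lower level of PSMD4, PSMF1 and PSMG1 in the luteal ovaries missed the threshold on the TPM scale.

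The activators open the core without ubiquitin, and none of the 4 passed. PSME1 and PSME2, the alpha and beta subunits of the interferon-induced PA28 ring, were abundant. PSME1 stood at 104, 122, 105, 122 and 102 FPKM in the luteal and 120, 147, 95.8, 123 and 108 FPKM in the follicular replicates. PSME2 stood at 54.1, 63.9, 52.8, 61.4 and 59.9 FPKM in the luteal and 56.4, 82.9, 58.5, 66.9 and 52.7 FPKM in the follicular replicates. In both genes follicular replicate 2 was the highest ovary, and the log2 fold changes were -0.09 (SE 0.11, adjusted p = 0.547) and -0.10 (SE 0.12, adjusted p = 0.485). PSME3, the nuclear PA28 gamma, was at 9.95, 10.3, 8.77, 9.44 and 9.97 FPKM in the luteal and 9.10, 12.1, 8.81, 9.73 and 7.34 FPKM in the follicular replicates (0.06, SE 0.12, adjusted p = 0.719). Its luteal ovaries lay inside the follicular range. PSME4, or PA200, a nuclear activator that takes part in histone degradation, was at 15.9, 15.7, 17.7, 14.2 and 15.9 FPKM in the luteal and 15.5, 15.3, 15.9, 15.9 and 15.7 FPKM in the follicular replicates. The follicular ovaries were nearly level, at 15.7 ± 0.256 FPKM, and the log2 fold change was 0.02 (SE 0.07, adjusted p = 0.850).

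PSMC3IP, the gene that matched the rule by symbol only, was at 2.59, 8.67, 9.92, 3.66 and 7.10 FPKM in the luteal and 7.29, 5.83, 7.98, 7.92 and 12.1 FPKM in the follicular replicates. Luteal replicates 1 and 4 were the lowest of all ovaries and follicular replicate 5 the highest. Its log2 fold change of -0.49 (SE 0.34, adjusted p = 0.269) was the largest in size among the members that did not pass, with the largest SE of the 48.

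Within a phase, most subunits were high or low in the same ovaries. Follicular replicate 2 was the highest follicular ovary for 14 of 14 core genes (PSMA1 to PSMA7 and PSMB1 to PSMB7) and for 13 of the 17 base and lid genes, while it was highest for 24.1% of all tested genes. Its median deviation from the phase mean, in log2(FPKM + 0.1), was 0.27 for the core, 0.20 for the base and lid and -0.05 for all genes. In the luteal phase replicate 4 was highest for 10 of 14 core genes, beside 13.4% of all genes, and replicate 3 lowest for 13 of 14, beside 24.5%. For the 17 base and lid genes luteal replicate 4 was highest for 6 and luteal replicate 5 for 7. Replicate 3 was also the lowest follicular ovary for 9 of 14 core genes, beside 17.1% of all genes. Outside the core the order was not shared by every gene, since follicular replicate 5 was the highest follicular ovary for PSMB8 and PSMF1 and follicular replicate 2 was the lowest for PSME4. Follicular replicate 2 also had the largest FPKM sum of all ovaries, 540124, and the greatest depth relative to luteal replicate 1, 1.34, as estimated from the smallest steps of low FPKM values. Follicular replicate 1 was close to it in depth, at 1.31, but its median core deviation was -0.04. The part of depth and of cell make-up in this order was not tested.

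**Figure D5:**
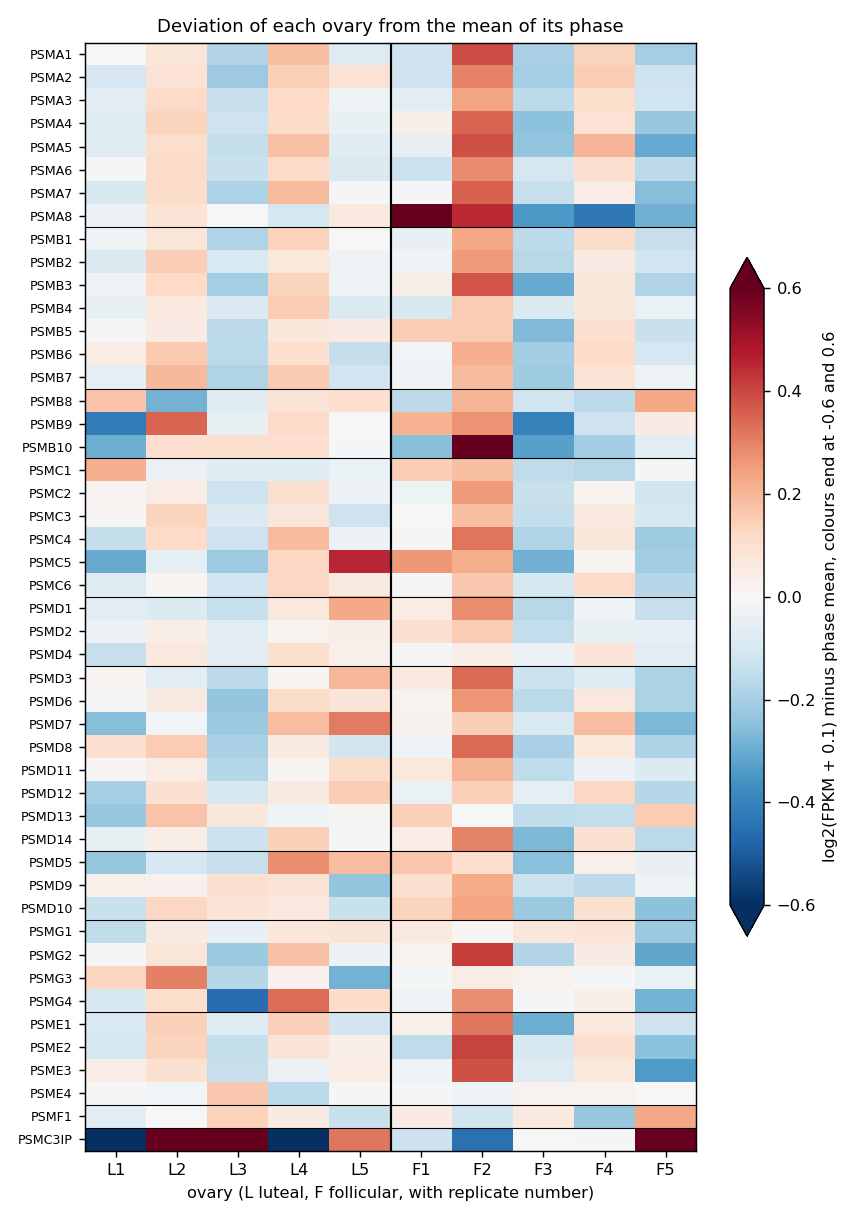
Deviation of each ovary from the mean of its phase in log2(FPKM + 0.1) for the 48 tested proteasome genes (rows, grouped by place in the particle) in luteal (L) and follicular (F) replicates 1 to 5 (columns), with colours ending at -0.6 and 0.6. Follicular replicate 2 is high in all 14 core rows PSMA1 to PSMA7 and PSMB1 to PSMB7, and luteal replicate 3 is below its phase mean in all 14.

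Genes that work with the proteasome but lie outside the symbol rule were read from the same fit. Of 11 tested partners of the particle, 1 was higher and 2 were lower in the luteal ovaries, beside 15.9% and 27.8% of all genes. On the TPM scale 4 were higher and 1 lower, but across all genes the higher share of calls also rose, from 36.3% to 52.1%. AKIRIN2, which brings proteasomes into the nucleus, stood at 23.8 ± 2.53 against 17.8 ± 1.105 FPKM (0.41, SE 0.08, adjusted p = 0.00244), with no overlap between phases. ZFAND5, a zinc finger protein that stimulates the 26S particle, stood at 39.5 ± 3.97 against 56.0 ± 5.77 FPKM (-0.50, SE 0.09, adjusted p = 0.00130), also without overlap. The other lower gene, PITHD1, missed the threshold on the TPM scale.

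NFE2L1, the transcription factor that raises proteasome gene expression when proteasome activity is short, was higher in the luteal ovaries. It was at 86.2, 75.8, 87.2, 111 and 120 FPKM in the luteal and 64.9, 59.8, 60.3, 59.2 and 56.4 FPKM in the follicular replicates. All luteal ovaries were above all follicular ones, with a log2 fold change of 0.66 (SE 0.12, adjusted p = 0.00117). Of the 10 genes tested on its route, the other 3 calls were lower in the luteal ovaries, so that 40.0% passed in either direction beside 43.7% of all genes, with the related factor NFE2L3 changed most (2.65 ± 0.818 against 4.63 ± 0.928 FPKM, -0.81, adjusted p = 0.00958). NGLY1, the glycanase that processes NFE2L1, missed the threshold once the ovaries were aligned to 1 median, and NFE2L2 missed it both then and on the TPM scale. None of the 14 core genes passed in the same fit, while on the TPM scale 3 of the 14 passed as higher in the luteal ovaries. A link between NFE2L1 and the core genes was not tested.

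Among the ubiquitin and delivery genes, 3 of 14 were higher and 5 lower in the luteal ovaries, beside 15.9% and 27.8% of all genes. On the TPM scale 4 were higher and 3 lower, while the higher share of calls across all genes rose from 36.3% to 52.1%. UBA1, the main ubiquitin-activating enzyme, was at 26.0 ± 2.28 against 21.4 ± 1.15 FPKM (0.28, SE 0.07, adjusted p = 0.0108). RPS27A, which encodes ubiquitin fused to a ribosomal protein, was at 1722 ± 166 against 2656 ± 237 FPKM (-0.63, SE 0.12, adjusted p = 0.00160), and its log2 fold change was -0.30 after quantile normalization (adjusted p = 0.00294). VCP, an unfoldase that hands substrates to the proteasome and one of the higher genes, missed the threshold after quantile normalization.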

How the data were processed

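Whole goat ovaries (5 luteal phase, 5 follicular phase) were sequenced by the authors after removal of ribosomal RNA, with strand-specific libraries read from both ends. Reads went through HISAT2 and StringTie, and the authors obtained the deposited FPKM of each transcript in each ovary with Cuffdiff, without pooling. The genome build is not given in the sources used here, so no coordinates are printed, and how reads of near-identical gene copies were divided is not known. The mRNA table repeats the protein-coding rows of the whole transcript table.

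FPKM were summed per symbol and analysed as log2(FPKM + 0.1) without further scaling, so fold changes of low genes are understated. Genes with at least 0.1 FPKM in at least 5 ovaries (15359 of 20587) were fitted with limma 3.58.1 (a moderated fit whose variance prior follows the mean level) in R 4.3.3, luteal minus follicular, two-sided, with Benjamini-Hochberg adjustment over the 15359. Genes with an adjusted p under 0.05 are said to pass. The 3 ratios of immune-type to constitutive subunits were compared by exact permutation of the ovaries with scipy 1.17.1. The fit was tested on simulated data. The members, lists and tests were chosen with earlier results of these data known.

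Values in every ovary are given for the catalytic subunits, the activators, PSMD4, PSMD14, PSMC3IP, PSMG1, NFE2L1 and the most changed member of each class. Other lists are given by counts and their most changed passing genes, with some further genes, such as PTPRC, TAP1 and TAP2, also named. Names of all 49 symbols matched the RefSeq table of assembly ARS1.2, which was used for names and neighbours only. Whole reads could not be recovered from FPKM, so counting error per ovary is unknown, and only relative depth was estimated (0.873 to 1.34). Listed symbols without a row were not analysed here. Alternatives were other pseudocounts (1 and 0.01), filters, scalings and thresholds, eBayes without trend, a replicate block, the leading transcript alone and leaving out each ovary.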

Additional observations from a re-analysis of the deposited data

Results flagged for a closer look

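In 5 of 102 groups of 5 ovaries (the members and the 3 ratios, each phase apart), 1 ovary lay far from the other 4 by Dixon's gap, and chance gives about 1 in 20. PSMB10 in follicular replicate 2 was at 68.3 FPKM, with the other follicular ovaries from 29.8 to 35.7, and the ratio of PSMB10 to PSMB7 in that ovary was 0.6001 against 0.306 to 0.366. PSMC1, a base ATPase, was at 49.4 FPKM in luteal replicate 1 against 40.3 to 41.5. PSMD9, a base chaperone, was at 18.0 FPKM in luteal replicate 5 against 21.5 to 22.6. PSMG1 was at 29.2 FPKM in follicular replicate 5 against 34.4 to 36.1.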

How the results depend on the processing

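The count of proteasome genes that differed, 7 with the settings of the report, was 6 to 9 under both other pseudocounts, both other filters, a fit without trend, the leading transcript alone, median alignment of the ovaries, quantile normalization and a replicate block. Under these settings 32.3% to 46.5% of all genes passed. TPM gave 11, beside 34.8% of all genes, and a threshold of 0.01 gave 1 (PSMB9), beside 26.2%. An unadjusted threshold of 0.05 gave 10, beside 52.2%, and leaving out 1 ovary gave 5 to 13, beside 35.7% to 45.6%. The highest count, without follicular replicate 2, added PSMA4, PSMB1, PSMB10, PSMD6, PSMD12 and PSMD14. Nothing in the labels says that ovaries of equal number are paired. Over all tested genes, correlations of same-numbered deviations ran from 0.0258 to 0.199, which cannot settle it. Luteal replicates 2 and 4 correlated best with the follicular ovary of their own number. The median core deviation had the same sign in both phases for every number. With the replicate block 8 proteasome genes passed, PSMB1 (adjusted p = 0.0378) and PSMD14 (adjusted p = 0.0478) among them, while PSMC5 did not (adjusted p = 0.0508). In that design the log2 ratio of PSMB9 to PSMB6 was 0.63 with an adjusted exact p of 0.281, a design of 5 pairs that cannot pass. Leaving out 1 ovary gave 0.57 to 0.74 for that ratio and -0.085 to 0.16 for PSMB10 to PSMB7, which changed sign in 4 of 10. The median log2 fold change of the members was -0.023 after quantile normalization and -0.012 to 0.098 when 1 ovary was left out. Signs changed for 18 members, none of them passing in the report or in the setting with the changed sign, and the cause was not tested. After quantile normalization the log2 fold changes of PSMA3, PSMA6, PSMA7, PSMB4, PSMB7, PSMC2 and PSMC4 were -0.071, -0.050, -0.027, -0.012, -0.018, -0.065 and -0.017, and that of PSMD11 was 0.016. After median alignment those of PSMB2, PSMB3, PSMB6, PSMC1, PSMC3, PSMD8 and PSMD11 were 0.067, 0.029, 0.078, 0.054, 0.064, 0.055 and 0.075. On the TPM scale the same genes were at 0.081, 0.043, 0.092, 0.067, 0.078, 0.069 and 0.088, and PSME1 at 0.013. Leaving out 1 ovary, the fold changes that changed sign ran from -0.0096 to 0.14 for PSMA7, -0.21 to 0.053 for PSMA8, -0.060 to 0.046 for PSMB2, -0.13 to 0.039 for PSMB3, -0.060 to 0.047 for PSMB6, -0.086 to 0.014 for PSMC1, -0.057 to 0.024 for PSMC3, -0.014 to 0.12 for PSMC4, -0.079 to 0.055 for PSMD8, -0.049 to 0.041 for PSMD11, -0.027 to 0.15 for PSME3 and -0.023 to 0.057 for PSME4. The read depth of each ovary is unknown, so the spread between ovaries alone sets the precision, and the 95% intervals of the core genes reached from -0.32 to 0.46.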
